A study of Bos taurus with 2 samples.

Results

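Probes of 41 genes that make, break down and sense cyclic AMP were compared between the muzzle tissue of 2 native Korean (HanWoo) cows, 1 with a light muzzle and 1 with a dark muzzle. Cyclic AMP (cAMP) is a small signalling molecule. In pigment cells it carries the signal of the melanocortin 1 receptor to the kinase PKA and the transcription factor CREB. The study asked which genes linked to pigment formation differ between dark and light muzzles. The members were chosen by name. They were all noncontrol probes whose accession belongs to a gene of the adenylate cyclase (ADCY), phosphodiesterase (PDE) or A-kinase anchor protein (AKAP) families, to a catalytic (PRKAC) or regulatory (PRKAR) subunit of PKA, or to a short list of G protein subunits, PKA inhibitors, cAMP-activated exchange factors and CREB proteins. This gave 95 of the 43639 noncontrol probes. The RefSeq table holds 75 symbols of the rule. The other 34, among them ADCY2, AKAP6, AKAP12, PDE3A, PDE4D and PRKAR2A, had no probe with a matching accession and are not members. ADCY2 is described below by probes that the study pairs with it, and the rest were not analysed here.

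Both cows were females of the HanWoo breed, 30 months old. In the labels the light-muzzle cow has a yellow nose and the dark-muzzle cow a black nose, and each was taken as a representative animal of its colour. RNA came from whole tissue of the front of the muzzle, so it holds epidermis, glands, vessels, nerves and muscle together with melanocytes. In such tissue, fewer cells of a type and less RNA per cell cannot be told apart. Each RNA was read alone on an Agilent 1-colour array. With 1 array per group there was no replicate, no test was possible, and every difference below is a difference between 2 animals.

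A level is the log2 of the processed signal minus the 75th percentile of the noncontrol spots of its array, which stood at intensities of 1144 (light muzzle) and 1137 (dark muzzle). The light-muzzle level was subtracted from the dark-muzzle level to give a log2 ratio, so 1 stands for 2-fold higher and -1 for 2-fold lower in the dark muzzle. Of the noncontrol spots, 78.8% were well above background in the light muzzle and 81.9% in the dark muzzle, and 0 were saturated. The tissue was checked by its markers. All 7 keratinocyte markers with a probe were well above background in both cows, with levels in the light and dark muzzle of 7.52 and 7.12 for KRT14, a keratin of the basal layer. The melanocyte markers TYR, PMEL, SLC24A5, MITF, DCT and KIT were measured in both cows, and the 3 probes of TYRP1 passed the background flag in the dark muzzle alone. By their mean over probes measured in both cows, DCT and KIT were lower in the dark muzzle.

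Background on the pathway helps to place the genes. A receptor that couples to the stimulatory G protein (its alpha subunit is GNAS) activates an adenylate cyclase, which makes cAMP from ATP, while receptors coupled to the inhibitory subunits (GNAI) restrain it. PKA rests as a complex of regulatory and catalytic subunits; cAMP binds the regulatory subunits and frees the catalytic ones, which small inhibitor proteins (PKI) can block again. A-kinase anchor proteins hold PKA at given places in the cell, phosphodiesterases end the signal by cleaving cAMP or cGMP, and CREB and its relatives switch on genes when PKA phosphorylates them.

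Of the 95 probes, 75 were well above background on both arrays and have a measured ratio. A further 6 passed the background flag in the dark muzzle alone and 2 in the light muzzle alone. For these only a bound can be given. It sets the bright level against the detection limit of the other array (the lowest level there that passed the background flag) or, where it is higher, against the dim reading itself. Of these 83 probes, 11 lay at least 2-fold higher (13.3%) and 3 lay at least 2-fold lower (3.61%) in dark muzzle. Over all probes of the arrays the shares were 9.76% and 7.17%. A bound can only point to the cow in which the probe was bright. Over the 75 probes measured in both cows, 9 (12.0%) were at least 2-fold higher, against 8.43% of all such probes, and 2 (2.67%) were at least 2-fold lower, against 6.8%. Most of the 75 probes differed little: 48 (64.0%) lay within 1.5-fold, against 67.8% of all probes.

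Small differences leaned one way. Of the 75 probes, 52 (69.3%) were higher in the dark muzzle, against 50.3% of all probes, and their median log2 ratio was 0.23, against 0.0038 over all probes measured in both cows. With the bounds included the medians were 0.27 and 0.028. Probes of 1 gene are not independent of each other, and GNAS alone had 6. Counted by gene, 24 of the 36 genes with a ratio or bound were higher and 12 lower, with a median of 0.17 against 0.065 over all 8914 genes named in this way. The median of all named genes was thus itself above 0, and their share above 0 was not counted. At least 2-fold higher were 4 of the 36 genes, PKIA, PKIB, AKAP7 and CREM, and 1, PDE6A, was at least 2-fold lower. Among all named genes 9.86% were higher and 6.47% lower by this measure. At a threshold of 1.5-fold, 28 member probes were higher (33.7%, against 19.7% of all probes) and 5 lower (6.02%, against 15.1%). At 3-fold, 3 were higher (3.61%, against 4.42%) and 1 lower (1.20%, against 3.19%).

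**Figure D1:**
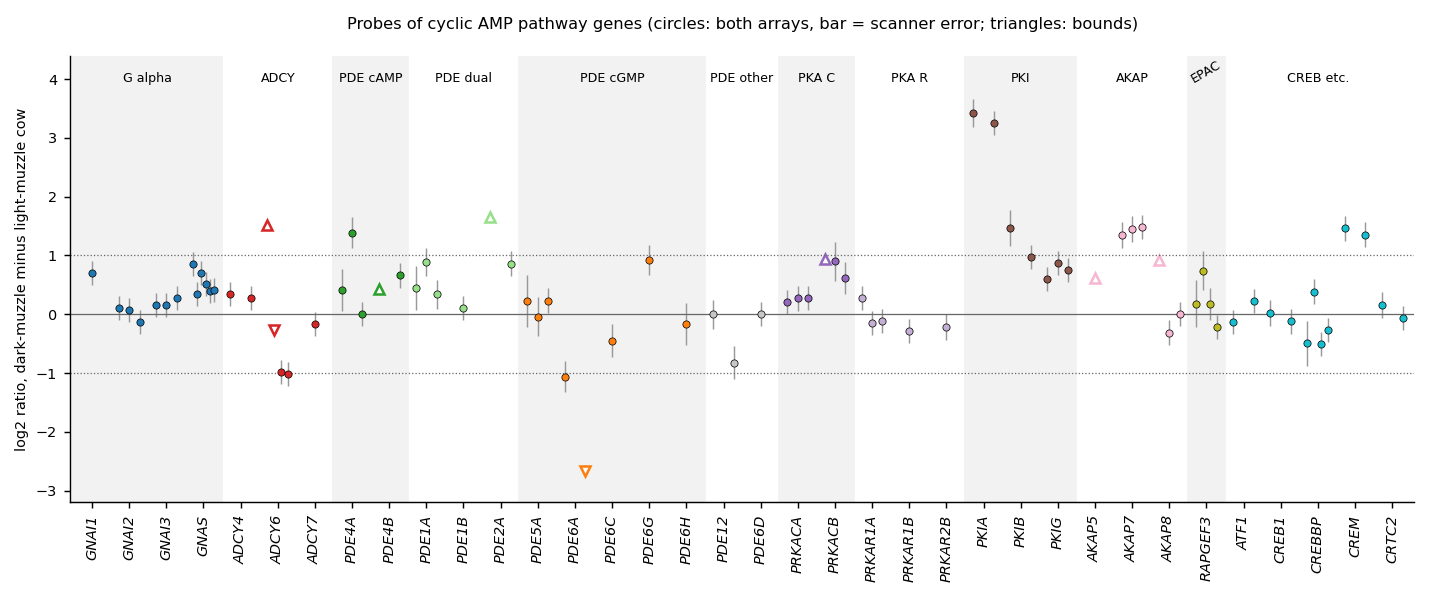
Log2 ratio (dark-muzzle minus light-muzzle cow) of each member probe, grouped by gene and family. Circles are probes well above background in both cows, with the scanner's error as bars; triangles are bounds, pointing up for probes bright in the dark muzzle alone and down for those bright in the light muzzle alone; dotted lines mark 2-fold. Both PKIA probes lie above 3, and the 7 probes of the PKA inhibitors all lie above 0.

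Error within the arrays was judged in 2 ways. The scanner software gives an error for each processed signal, from which the error of a log2 ratio was between 0.20 and 0.44 for the 75 probes, with a median of 0.21. Of the 75, 25 were higher (33.3%, against 22.5% of all probes measured in both cows) and 5 lower (6.67%, against 20.6%) in the dark muzzle by more than 2 such errors. Different probes of the same gene gave a second estimate. For the 23 member genes with at least 2 measured probes, the SD of the log2 ratio between probes had a median of 0.16, close to the 0.18 over 7661 transcripts of the arrays. In 13 of the 23 genes all probes lay on the same side of 0, and the same count was not made over all transcripts. Neither estimate holds the difference between animals of the same muzzle colour.

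All 7 probes of the PKA inhibitors were higher in the dark muzzle. These short proteins occupy the substrate site of the free catalytic subunit and take it out of the nucleus. PKIA (NM_001037620), the form first known from skeletal muscle, had an intensity of 870.1 in the light muzzle and 8208 in the dark muzzle at its brighter probe. At its dimmer probe the intensities were 66.1 and 705.2. Both probes showed a similar size of difference, with log2 ratios of 3.25 and 3.42 and scanner errors of 0.20 and 0.24. The mean was 10.1-fold. This was the largest ratio of the 36 genes.

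PKIB had intensities of 260.2 in the light and 510.0 in the dark muzzle at its brighter probe, a log2 ratio of 0.98. Its dimmer probe went from 35.5 to 97.4, a ratio of 1.47, and the mean was 1.22. PKIB thus reached 2-fold through the dimmer probe. PKIG, which is made in many tissues, had log2 ratios of 0.60, 0.87 and 0.75, with intensities of 1659 and 2778 at the brightest of the 3 probes. Its mean ratio was 0.74 ± 0.14 (SD, n = 3 probes), or 1.67-fold. The mean ratio of PKIA exceeded that of PKIG by 2.59.

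Subunits of PKA itself differed less than PKIA and PKIB in mean log2 ratio, although PRKACB (0.76) lay level with PKIG (0.74). PRKACA, the main catalytic subunit of most tissues, had log2 ratios of 0.21, 0.27 and 0.28 at 3 probes, with intensities of 6510 and 7852 at the brightest, so the mean of 0.25 ± 0.036 (SD, n = 3 probes) amounted to 1.19-fold. PRKACB (NM_174585), the beta catalytic subunit, was dim at its 3 probes. Intensities were 28.3 and 52.5 at one probe and 42.6 and 65.2 at another, with log2 ratios of 0.90 and 0.62. The third probe rose above background in the dark muzzle alone, with intensities of 9.92 and 39.7 and a bound of at least 1.92-fold higher. A brighter probe of BC149047, an accession that the study pairs with PRKACB but the RefSeq table does not list, had intensities of 637.8 and 1330 and a log2 ratio of 1.07. By the probes of the RefSeq accession, PRKACB exceeded PRKACA by 0.51 in mean log2 ratio, and PKIA exceeded PRKACA by 3.08.

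Regulatory subunits, which bind cAMP and hold the catalytic subunits inactive, lay close to 0. PRKAR1A, the widely expressed type I subunit, had log2 ratios of 0.27, -0.16 and -0.12 at 3 probes, with intensities of 4635 and 4244 at the brightest. Single probes of PRKAR1B and PRKAR2B had ratios of -0.29 and -0.22. Of the 5 probes, 4 were lower in the dark muzzle, none by 2-fold, and their median was -0.16.

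**Figure D2:**
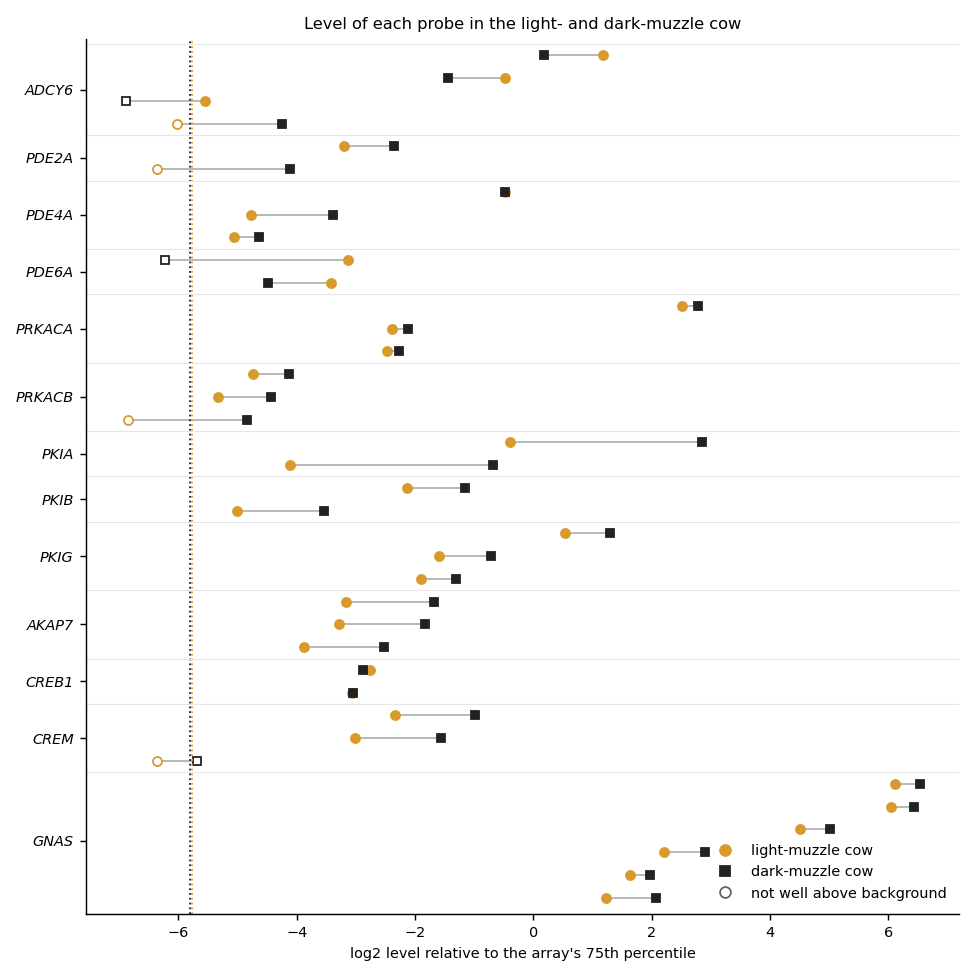
Log2 level of every probe of 13 member genes in the light muzzle (orange circles) and the dark-muzzle cow (black squares), relative to the 75th percentile of the array; open symbols were not well above background, and dotted lines mark the lowest level well above background. PKIA, AKAP7 and CREM moved to higher levels at each probe measured in both cows, whereas the 2 brighter probes of ADCY6 moved to lower levels and its 2 dim probes in opposite directions.

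Among the anchors of PKA, AKAP7 stood out. AKAP7 (NM_001102266) ties PKA to membranes and, in muscle, to calcium channels. Its 3 probes had intensities of 127.6, 116.9 and 78.3 in the light muzzle and 354.9, 318.2 and 197.9 in the dark muzzle. The 3 log2 ratios, 1.48, 1.45 and 1.35, differed by 0.14 at most, and the mean of 1.43 ± 0.072 (SD, n = 3 probes) was 2.69-fold. The nuclear anchor AKAP8 differed little at its 2 brighter probes, with intensities of 1668 and 1659 at the brightest and ratios of 0.0006 and -0.31, and the dim one gave a bound of 0.92. AKAP5 had 1 probe well above background, in the dark muzzle alone and with a bound of 0.62. AKAP3 and AKAP4, anchors of the sperm tail, were well above background in neither cow.

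Synthesis of cAMP was represented by 4 adenylate cyclases, and their directions were mixed. ADCY6 (NM_001143877), a cyclase that calcium inhibits, had intensities of 2595 in the light muzzle and 1282 in the dark muzzle at its brightest probe, and of 824.0 and 416.2 at the next. The log2 ratios were -1.01 and -0.98, a mean of -0.99, just short of 2-fold. Its dim probes disagreed with these and with each other. Bounds were at least 2.88-fold higher for one, with intensities of 17.6 and 59.6, and at least 1.20-fold lower for the other, with 24.5 and 9.62. ADCY6 was thus the only member gene with a probe past 2-fold in each direction. ADCY4 had ratios of 0.28 and 0.35 and ADCY7 one of -0.17. ADCY1, a cyclase of nerve cells, was well above background in neither cow.

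ADCY2 was not among the members, since the RefSeq table does not list its accession on the array. The 2 probes of the accession that the study pairs with ADCY2 had intensities of 753.0 and 574.7 in the light muzzle and 3591 and 2664 in the dark muzzle, and log2 ratios of 2.26 and 2.22.

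The G protein subunits gave the brightest signals, although brightness on an array depends on the probe and does not rank genes. GNAS (NM_181021) had 6 probes, with intensities from 2670 to 79212 in the light muzzle and from 4486 to 105182 in the dark muzzle. All 6 were higher in the dark muzzle, with log2 ratios between 0.34 and 0.86 and a mean of 0.54 ± 0.20 (SD, n = 6 probes), or 1.45-fold. This locus makes several transcripts from different start sites, and which of them each probe reads was not analysed here. Inhibitory subunits ranged from GNAI2, at 0.013 over 3 probes, through GNAI3, at 0.20 over 3 probes, to GNAI1, at 0.70 with intensities of 338.3 and 547.6 at its single probe. GNAI2 turned negative at its brightest probe (-0.14) and with a shift to the 50th percentile (-0.0074). In all, 12 of the 13 probes of G protein subunits were higher in the dark muzzle, none by 2-fold, with a median of 0.34.

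Breakdown of cAMP, cGMP or both was read by 24 probes of 12 cyclic nucleotide phosphodiesterases. Of the 16 probes measured in both cows, 11 were higher and 5 lower in the dark muzzle, with a median log2 ratio of 0.28. They are described by the nucleotide they cleave.

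Enzymes specific for cAMP were higher or near 0. PDE4A (NM_001101081) was split between probes. Its brightest probe had intensities of 821.8 and 816.7 and a log2 ratio of -0.0003, whereas the dim probes had 41.9 and 109.0, a ratio of 1.39, and 34.4 and 45.5, a ratio of 0.41. PDE4A reached 2-fold through a single dim probe and had the largest SD between probes, 0.71. PDE4B, an enzyme that cAMP itself induces in many cells, had intensities of 142.9 and 225.5 at its brightest probe, a log2 ratio of 0.67, and a second probe with a bound of 0.43. PDE7B was well above background in neither cow.

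Enzymes that cleave both nucleotides were likewise higher. PDE2A, which cGMP stimulates, had intensities of 123.8 and 223.0 at its brighter probe and a log2 ratio of 0.86. Its other probe went from 13.9, not well above background, to 65.5 and was at least 3.16-fold higher. The calcium-activated PDE1A had ratios of 0.34, 0.45 and 0.89, and PDE1B one of 0.11 at the single probe measured, with intensities of 250.8 and 268.6.

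Of the 7 probes of cGMP-specific enzymes measured in both cows, 3 were higher and 4 lower in the dark muzzle, with a median of -0.043. The 2 probes at least 2-fold lower, by ratio or bound, were both of PDE6A. PDE6A (NM_001001526), known as a subunit of the rod photoreceptor enzyme, had intensities of 106.9 in the light muzzle and 50.9 in the dark muzzle at one probe. Its log2 ratio was -1.06. At the other the intensities were 129.8 and 15.3, the latter not well above background, so it was at least 6.35-fold lower. Both probes of PDE6A thus pointed the same way. Other photoreceptor subunits were dim, with ratios of 0.92 for PDE6G, -0.16 for PDE6H and -0.45 for PDE6C, and PDE6B was well above background in neither cow. PDE5A, the enzyme of smooth muscle, lay between -0.043 and 0.23 at 3 probes, with intensities of 127.8 and 149.0 at the brightest. PDE6D and PDE12 share the name but do not cleave cyclic nucleotides. PDE6D had intensities of 1239.7 and 1233 and a ratio of 0.0009, and the 2 probes of PDE12 gave -0.0026 and -0.83.

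**Figure D3:**
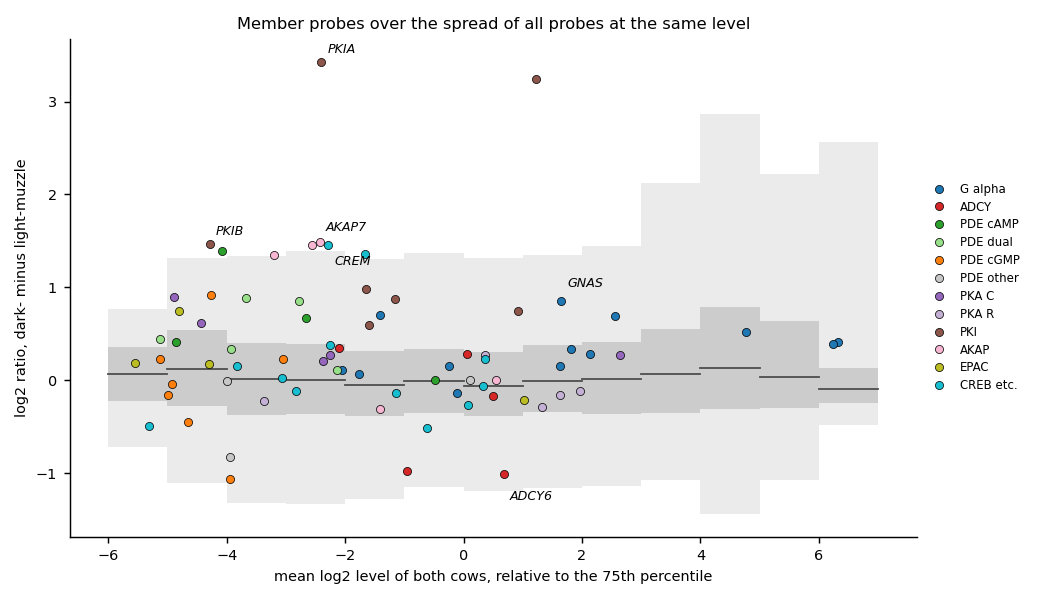
Log2 ratio of the 75 member probes measured in both cows against their mean log2 level, coloured by family, over the 33246 such probes of the arrays in the same range of levels (dark grey, the central 50% of probes in each 1-unit bin of level; light grey, the central 90%; line, the median). Both PKIA probes lie far above the light grey band, the 3 probes of AKAP7, 2 of CREM and 1 each of PKIB and PDE4A just above it, and the other 66 inside it.

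At the end of the pathway, CREM differed and CREB1 stayed within the scanner error. CREM (NM_001034710) is a relative of CREB1 whose gene also makes short repressor forms that cAMP induces. Its intensities were 225.3 and 573.2 at one probe and 141.5 and 386.8 at another, with the higher value in the dark muzzle each time. The log2 ratios were 1.36 and 1.46, a mean of 2.65-fold, and the third probe was well above background in neither cow. Whether these probes read the activator or the repressor forms was not analysed here.

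CREB1, the factor that PKA activates in melanocytes, had intensities of 168.3 and 154.1 at one probe and 135.9 and 137.6 at the other, and ratios of -0.12 and 0.026, each smaller than its scanner error of 0.22. ATF1, its partner, had intensities of 1353 and 1577 at its brighter probe and ratios of 0.23 and -0.13. The coactivator CRTC2 had 0.16 and -0.061. The 4 probes of the histone acetyltransferase CREBBP ranged from -0.51 to 0.39, with a mean of -0.22. RAPGEF3, an exchange factor for RAP proteins that cAMP activates without PKA, had ratios from -0.21 at its brightest probe, with intensities of 2507 and 2151, to 0.74 at a dim one.

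Other genes of the pathway were read from lists of receptors, targets and further cAMP and cGMP genes. Of 20 receptors that raise cAMP, 13 had a ratio or bound, with a median of 0.052. VIPR1, a receptor for vasoactive intestinal peptide, was higher in the dark muzzle with a ratio of 1.02, and ADRB3, the adrenergic receptor of fat tissue, was lower at -1.58. MC1R, the melanocortin receptor, had levels of -2.68 in the light and -2.62 in the dark muzzle, a ratio of 0.052. Of 12 receptors that lower cAMP, 9 had a ratio or bound, 0 were past 2-fold and the median was -0.0001.

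Of 18 genes known as targets of CREB, 14 had a ratio or bound, and their median was 0.60, against 0.065 over all named genes. At least 2-fold higher were 4 of the 14, ATF3 (2.38), AREG (1.69), FOS (1.61) and CREM (1.41), and 1, NR4A2 (-1.31), was at least 2-fold lower, where 9.86% of all named genes were higher and 6.47% lower. CREM and PDE4B are members as well as targets, so this median and count overlap with the members, and neither was made without them. Several of these genes also respond to stress and growth factors. In all, 9 of the 14 lay above 0 and 5 below, and NR4A1 (-0.19), EGR1 (-0.59) and PPARGC1A (-0.83) were among those below. Of the 29 further genes 13 had a ratio or bound, with a median of 0.12. PLN, a PKA substrate that restrains the calcium pump of heart and slow muscle, had ratios of 3.06 and 3.11. PPP1R1B, a PKA substrate that inhibits protein phosphatase 1, was lower at -1.74 in the probe measured in both cows, and its other probe was at least 1.68 lower on the log2 scale. Guanylate cyclase subunits GUCY1A1 and GUCY1B1, which make cGMP, had ratios of 0.78 and 0.89.

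Markers of other cell types moved between these 2 pieces of tissue. All 13 skeletal muscle markers with a probe, of 18 listed, exceeded 2-fold towards the dark muzzle, with log2 ratios from 2.24 to 3.66 and a median of 3.01. Their summed intensity, from the brightest probe of each gene, was 451524 in the light and 2446570 in the dark muzzle, and none of them was absent from either. The ratios of PKIA (3.34) and PLN (3.08) lay inside the range of the muscle markers, and those of AKAP7 and CREM below it. Of 8 serous gland markers with a probe, 6 were at least 2-fold lower, with a median of -3.24, and the summed intensity was 431942 and 26627. The other serous gland markers, BPIFA1 (1.29) and LPO (0.57), were higher in the dark muzzle. Endothelial markers had a median of 0.96, with 3 of 6 at least 2-fold higher, melanocyte markers one of 1.32, with 5 of 8 at least 2-fold higher, 2 of them by a bound, and fibroblast markers one of -0.42. Below 0 were the melanocyte markers KIT (-0.072) and DCT (-0.52), although a second DCT probe gave a bound of 0.54 towards the dark muzzle. Of the 7 keratinocyte markers 3 were at least 2-fold higher, KRT4 (5.20), KRT10 (1.57) and IVL (1.26), and the list had a median of 0.25. Another 3 lay below 0, KRT5 (-0.52), KRT14 (-0.41) and DSC3 (-0.18). Leukocyte markers ranged from -0.40 to 0.65, and smooth muscle, nerve and adipocyte markers had medians of 0.22, -0.23 and 0.48. The part of these cell types in the differences of PKIA, AKAP7, CREM, ADCY6 or PDE6A was not tested, and with 1 cow of each colour it cannot be told apart from muzzle colour.

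**Figure D4:**
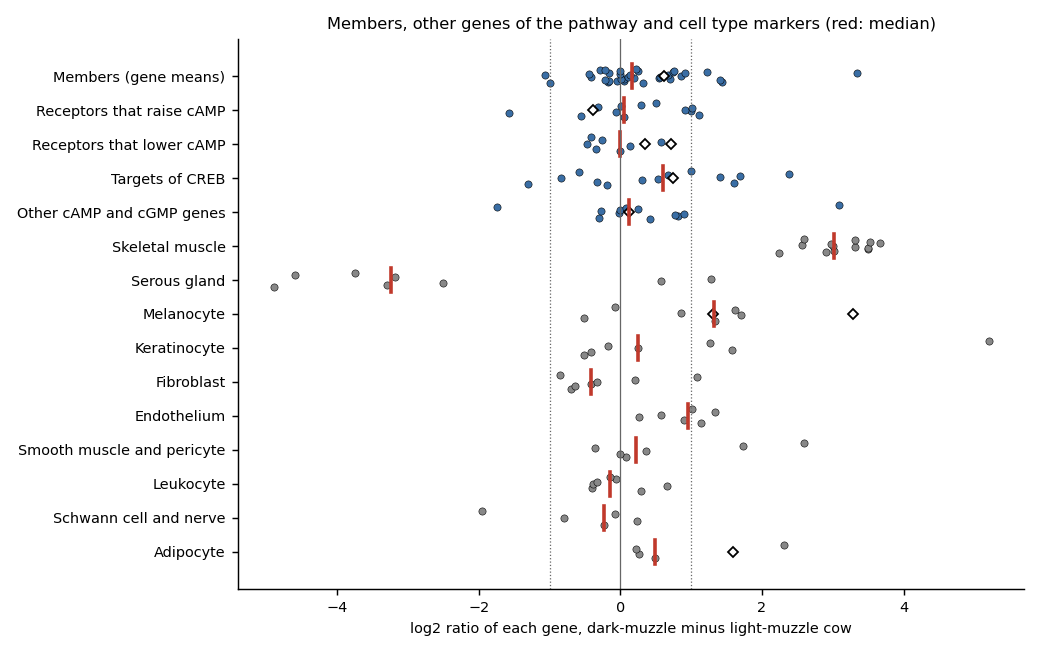
Log2 ratio of each gene (dark-muzzle minus light-muzzle cow) for the members, the other lists of the pathway (blue) and the cell type markers (grey); diamonds are bounds, red bars medians and dotted lines 2-fold. Members spread around a median of 0.17, the 13 skeletal muscle markers lie between 2.24 and 3.66, and 6 of the 8 serous gland markers lie below -2.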

How the data were processed

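Agilent 1-colour bovine arrays were analysed, 1 per cow. The authors deposited Feature Extraction 10.7.3.1 output (version per the labels), in which the processed signal (an intensity, background already removed and spatial trend corrected) comes with an error for each spot. The deposited log2 table, made in GeneSpring, equals log2 processed signal minus the 75th percentile, within 0.0002 for probes with 1 spot, and was used as an alternative. Control and outlier spots (13 per array) were left out. Accessions were matched to symbols through RefSeq's table for ARS-UCD2.0, naming 20587 of 43639 probes (47.2%). No coordinates were used, since the files name no build. No test was made with 1 array per group, which is what limits the precision. The members and gene lists were chosen with earlier results of these data known. Named in full were genes with a probe past 2-fold, the brightest of each family and ADCY2, ADCY6, PRKACB and CREB1; the others were named after their values were seen, to account for every member. A gene's ratio is the mean over its probes measured in both cows or, with none, its bound.

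Alternatives were quantile normalization, loess normalization (span 0.3) and normexp background correction (offset 50, on median pixel signals, since the files hold no mean) in limma 3.58.1 with R 4.3.3, shifts to the 50th percentile or none, other filters on dim probes, outlier spots kept, the deposited table, other thresholds, genes in place of probes and the brightest probe. Other steps ran in Python (3.11.15) with pandas (2.3.3) and numpy (2.4.6). The calling code was run on simulated arrays, with small noise and with large changes set in brighter probes. Such a run checks the code and does not measure error in dim probes or differences between animals. Promoter, protein and probe sequences were not used here. Of the listed genes, 1 is not reported here by name.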

Additional observations from a re-analysis of the deposited data

How the results depend on the processing

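The median log2 ratio of the member probes stayed between 0.17 and 0.28 under the alternatives, against 0.27 as reported, and no gene past 2-fold changed direction. PKIA, AKAP7 and CREM were past 2-fold under each alternative, with ranges of 2.80 to 3.35, 1.03 to 1.48 and 1.17 to 1.43. The 2 PKIA probes lay further apart under normexp, at 2.39 and 3.21. PKIB fell short of 2-fold under normexp (0.79) and at its brightest probe (0.98), and PDE6A under normexp (-0.46). Of the 36 genes, 26 kept their sign throughout. The mean of ADCY6 shrank to -0.18 when dim levels were raised to the detection limit, since its dim probes were then averaged in. The mean of PDE4A was -0.0003 at its brightest probe.

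Counts of probes depended on the threshold and the background. At least 2-fold higher and lower probes numbered 11 and 3 as reported, 6 and 1 under normexp, and 4 and 1 when genes were counted. They were 28 and 5 at 1.5-fold and 3 and 1 at 3-fold. Adding the probes that the study pairs with ADCY2 and PRKACB, an alternative chosen after seeing the data, gave 14 and 3.

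Medians of families, over 3 to 13 probes each, moved by more than the 0.18 SD between probes in these cases. A-kinase anchors (0.92 as reported) were at 0.60 under quantile and 0.60 under loess normalization, 0.34 under normexp and 1.35 with only probes measured in both cows. Exchange factors (0.18) turned to -0.086 and -0.053 under quantile and loess normalization. PKA catalytic subunits (0.45) were at 0.27 under normexp. For cAMP-specific phosphodiesterases (0.43), quantile, loess and normexp gave 0.19, 0.22 and 0.22, and no filter on dim probes 0.67. Dual enzymes (0.65) were at 0.35 under normexp, 0.86 with no filter and 0.45 with only probes measured in both cows. Enzymes specific for cGMP (-0.10) were at -0.35 and -0.32 under quantile and loess normalization and at 0.093 with no filter, and adenylate cyclases (-0.17) at 0.056 with no filter. The cause was not tested. The alternatives that needed a gene name column in the scanner files were not run, since the files hold none.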
